A study of Mus musculus with 8 samples.

Results

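The regions described here are the 291 domains of histone H3 lysine 36 dimethylation (H3K36me2) on mouse chromosome 15, out of 1691 H3K36me2 domains listed for the whole genome. They are all rows of the H3K36me2 table on that chromosome. The chromosome was selected on the share of the listed wild-type signal that it held, so that share is a description and not a result. The 2 libraries used for it were made from C3H10T1/2, mesenchymal progenitor cells that were derived as a line from C3H mouse embryos, at passages 10 to 15. One line stably carried histone H3.3 in which methionine replaces lysine 36 (K36M), and the other carried the wild-type histone (WT), both with a FLAG-HA tag. The labels name no deletion of the cells' own H3 genes in either line. Each genotype has 1 library per mark, so no difference below has a replicate check and no test between genotypes was possible. The H3K36me3 and H3K27me3 tables of the same cells give 279 of 4999 and 119 of 999 peaks on chromosome 15, and they are used as context.

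H3K36me2 is placed largely by the NSD family of methyltransferases, over gene bodies and over wide stretches between genes. H3K36me3 is made by SETD2 in the wake of transcription, over gene bodies, and H3K27me3 is made by Polycomb repressive complex 2 over silenced regions. Methionine at position 36 of H3 inhibits the enzymes that methylate lysine 36, also on the unmutated histones of the cell. Methylated lysine 36 hinders the Polycomb enzyme on the same histone tail, which is why the marks are often studied together.

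All values are reads per peak that the authors scaled to chromatin of Drosophila S2 cells, added at 5% of the mouse chromatin before the precipitation. They are called normalized reads here, and normalized reads per kb where they are divided by the length of the domain. Coordinates are those of the deposited tables, taken as build mm9, counted from 0 in windows of 200 bases. No annotation of that build was used, so domains are identified by position and not by gene. The input libraries of both genotypes were not analysed here and the values were not divided by them, so the amount of chromosome 15 DNA in each genotype was not examined.

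Chromosome 15 held 17.2% of the listed H3K36me2 domains, 26.6% of their covered length and 27.6% of their WT signal. It also held 25.5% of the K36M signal. The next chromosome by WT signal was chromosome 11 with 10.9%, followed by chromosome 10 with 9.42% and chromosome 2 with 8.39%. The large share went with many and long domains more than with a high level per kb. Domains on chromosome 15 had a median length of 29.0 kb, against 12.8 kb on the other chromosomes, and their mean length was 40.1 kb against 23.0 kb. The median WT level was 44.6 normalized reads per kb on chromosome 15 and 42.0 on the others. Domains of at least 30 kb made up 140 of the 291 on chromosome 15, and 324 of 1400 elsewhere.

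**Figure D1:**
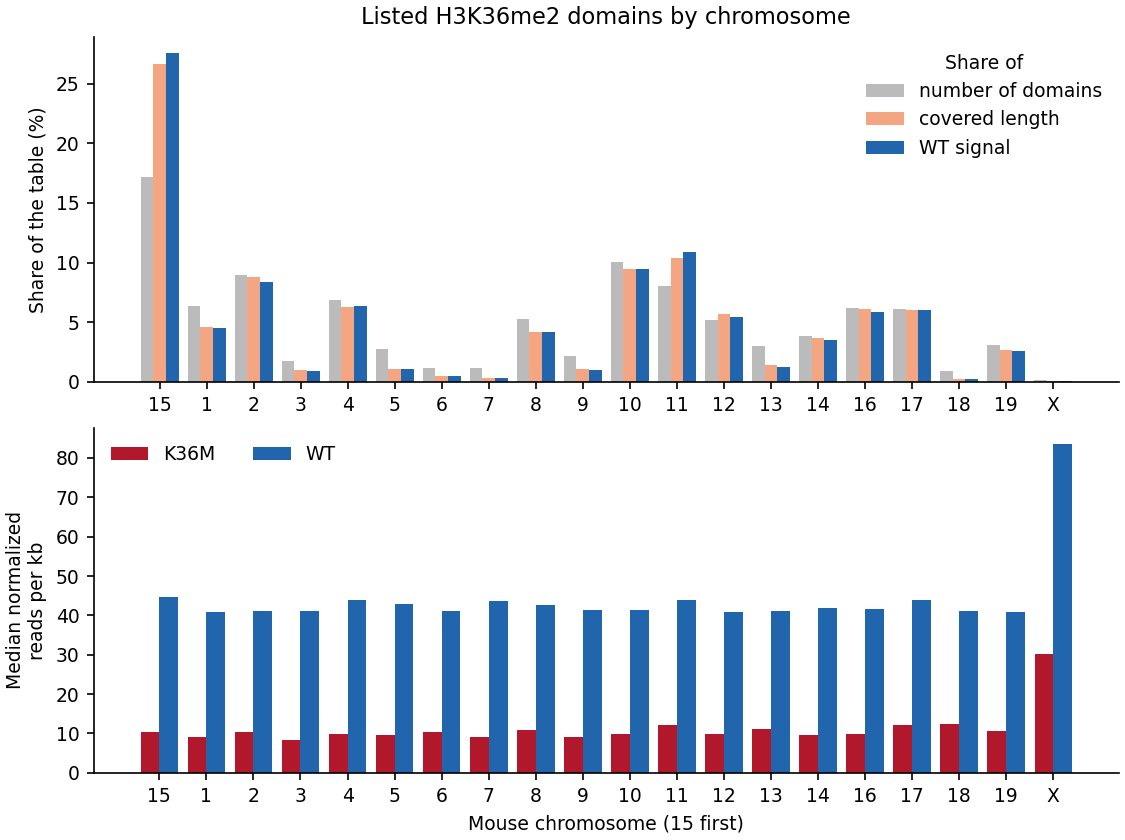
Upper panel, share of the listed H3K36me2 domains, of their covered length and of their WT signal on each mouse chromosome, in percent. Lower panel, median normalized reads per kb over the domains of each chromosome in K36M and WT, with 1 library each. Chromosome 15, drawn first, stands out in number and length of domains, while its WT level of 44.6 per kb is close to that of the other autosomes. Chromosome X has only 2 domains.

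The domains lay between 3327800 and 103231399, a span of 99.9 Mb, and covered 11.7% of it. Their lengths ran from 1.20 to 259 kb. The median gap between neighbours was 62.8 kb, with quartiles of 16.3 and 278 kb. The longest gap, from 12511599 to 23362400, was 10.9 Mb. Joining domains with gaps of at most 50 kb gave 167 clusters, of which 102 were single domains and 6 held at least 5 domains. The signal was concentrated in few domains: the 57 with the highest WT values, 19.6% of the 291, held 50% of the WT signal of the chromosome.

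The middle of the chromosome was the most densely covered. Domains with centres from 40 to 70 Mb numbered 113 and held 48.9% of the WT signal of the chromosome. In bins of 10 Mb, coverage by listed domains was highest from 50 to 60 Mb, at 27.6%, and from 60 to 70 Mb, at 18.8%. It was lowest from 20 to 30 Mb, at 4.38%. H3K36me3 was spread differently, with its highest coverage of 24.7% from 80 to 90 Mb and 13.6% from 50 to 60 Mb. H3K27me3 covered at most 10.9% of a bin, from 70 to 80 Mb.

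The cluster with the highest WT signal, from 60934800 to 61660799, held 6 domains that filled 93.3% of its 726 kb. It had 5339 normalized reads in K36M and 31228 in WT, a 5.85-fold difference and 5.93% of the WT signal of the chromosome. The next cluster, from 53888800 to 54653399, was the one with the most domains, 10, and had 4704 normalized reads in K36M and 27334 in WT. Clusters from 62088200 to 62517999 and from 59240200 to 59684599 followed, 4.59-fold and 3.85-fold lower in K36M. These 4 clusters thus ranged from 3.85-fold to 5.85-fold lower.

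All 291 domains had less H3K36me2 in the K36M library, as it was in 100% of the domains of the whole table. Summed over the chromosome, there were 121270 normalized reads in K36M and 527009 in WT, over the same 11.7 Mb. The ratio was 0.230, with an exact 95% Clopper-Pearson interval of 0.229 to 0.231 that covers counting error only. On the other chromosomes together the ratio was 0.256. Per kb, the summed signal of chromosome 15 was 10.4 in K36M and 45.2 in WT. The median domain had 10.5 normalized reads per kb in K36M and 44.6 in WT. Only 1 domain had more signal per kb in K36M than the sparsest domain had in WT, 33.6 per kb.

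The median log2 ratio over the domains of chromosome 15 was −2.15 (quartiles −2.38 and −1.88), against −2.05 (quartiles −2.25 and −1.83) on the other chromosomes and −2.07 over all. In 187 of the 291 domains (64.3%) the K36M value was at least 4-fold lower, against 59.0% of all domains in the table. The counts at 5-fold were 88 domains (30.2%), against 19.5% of all. At 2-fold they were 286 (98.3%), against 97.0%, which is close to the background. The 5-fold count was uneven along the chromosome. Of the 88 domains, 68 lay from 40 to 70 Mb (60.2% of 113), bounds drawn after the values were seen. Before 40 Mb 12 of 70 domains (17.1%) were at least 5-fold lower, and from 70 Mb on 8 of 108 (7.41%). Chromosome 15 did not stand out among single chromosomes, as its median log2 ratio ranked 6th from the lowest. The lowest median was −2.27, on chromosome 9. Nor were its shares of domains the highest, with 76.9% at 4-fold on chromosome 14 and 38.9% at 5-fold on chromosome 9. The WT signal that chose the chromosome is the denominator of these ratios, so they are given as a description.

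Levels in K36M varied more between domains than levels in WT. The coefficient of variation over the 291 domains was 33.1% for K36M per kb and 17.4% for WT per kb. The list holds no domain of chromosome 15 under 33.6 normalized reads per kb in WT, and a floor of this kind narrows the WT range. Over domains, the log2 ratios had an SD of 0.40, of which counting error would account for an SD of 0.11. The error between cultures and precipitations, which also enters that SD, was not measured. Across the 291 domains the log2 ratio went with the K36M level (Pearson r = 0.82, Spearman rho = 0.86), of which it is the numerator, and little with the WT level (r = −0.16, rho = −0.21).

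Along the chromosome the WT level of the listed domains was almost flat while the K36M level was not. The floor in WT level of the list also narrows the WT range here and in the sets of domains named below. Over the 11 bins of 10 Mb the median level ran from 8.19 to 13.1 normalized reads per kb in K36M, a 1.60-fold range, and from 42.7 to 46.6 in WT, a 1.09-fold range. The lowest median log2 ratio was −2.46, from 40 to 50 Mb (28 domains), where 25 domains were at least 4-fold lower. From 50 to 60 Mb it was −2.42 (58 domains), and from 60 to 70 Mb −2.28 (27 domains). The 4 bins from 70 Mb on had medians of −1.86, −1.92, −1.99 and −1.95. In the 4 bins before 40 Mb the medians were −2.16, −2.17, −2.28 and −2.06. In bins of 5 Mb the lowest median was −2.65, from 20 to 25 Mb, and the highest −1.84, from 0 to 5 Mb, with 5 domains in each, so the places of the lowest and the highest bin both changed with the bin size.

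**Figure D2:**
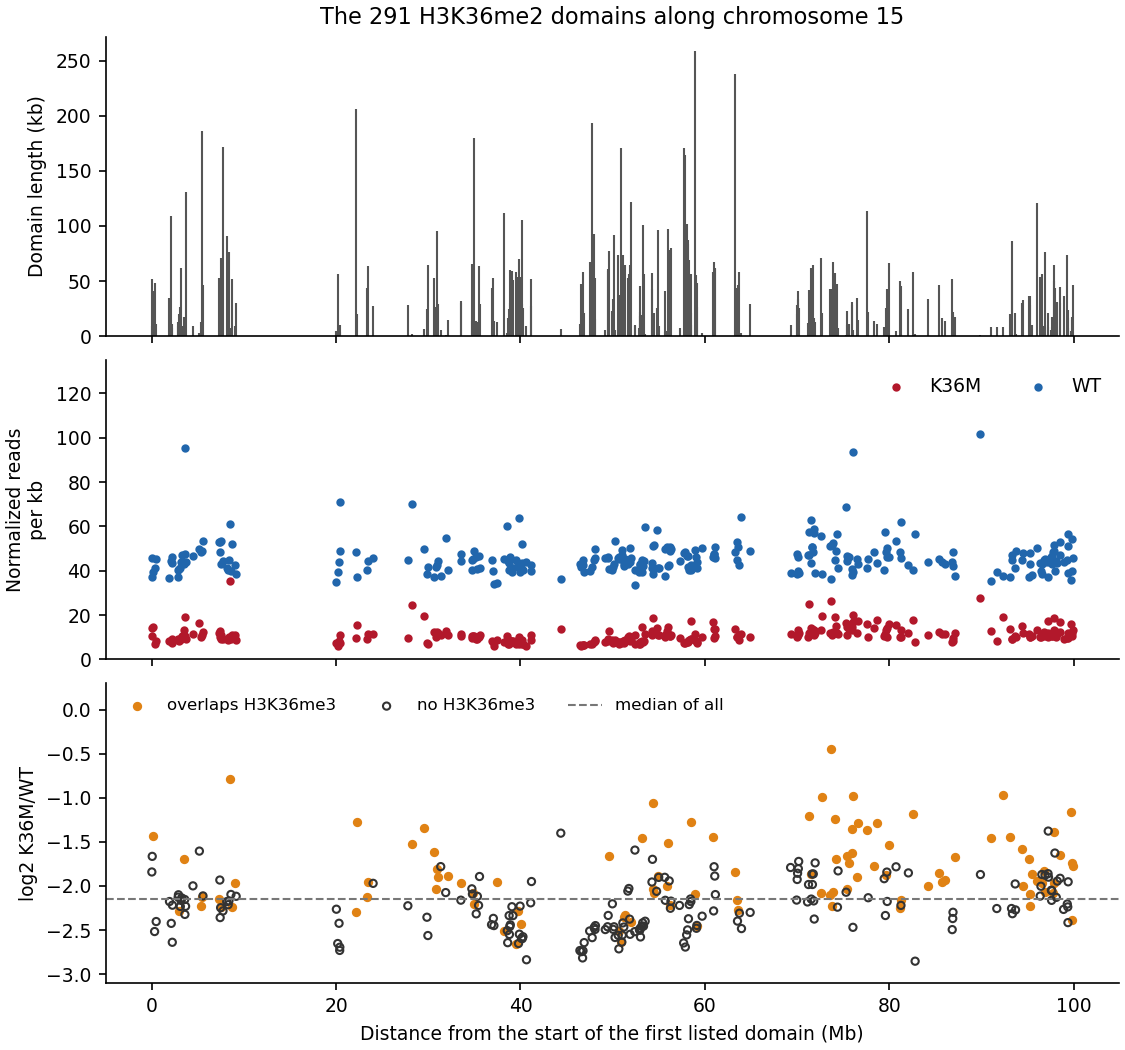
Length (kb), level in K36M and WT (normalized reads per kb) and log2 K36M/WT ratio of each of the 291 H3K36me2 domains, by distance in Mb from the start of the first listed domain. Each point or line is 1 domain measured in 1 library per genotype, and the dashed line is the median of −2.15. Many of the lowest ratios lie in the middle of the chromosome, and domains that overlap H3K36me3 mostly lie in the upper part of the spread.

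The difference in median between chromosome 15 and the others was −0.10 on the log2 scale for all domains. It was 0.02 without the domains from 40 to 70 Mb and 0.0062 without those from 39 to 63 Mb. Both pairs of bounds were drawn around low values after these were seen, so a smaller difference without them follows from the choice. In the stretch from 40 to 70 Mb the median domain had 8.56 normalized reads per kb in K36M and 44.2 in WT, and 83.2% of 113 domains were at least 4-fold lower. From 70 Mb on these levels were 11.9 and 45.1, and 40.7% of 108 domains were at least 4-fold lower. Before 40 Mb they were 10.4 and 44.4, and 49 of 70 domains were at least 4-fold lower.

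Neighbouring domains had like ratios. The log2 ratios of adjacent domains correlated with r = 0.43 and rho = 0.63 where the gap was at most 50 kb (124 pairs), and with r = 0.26 and rho = 0.34 over wider gaps (166 pairs). All these points share the same pair of libraries and their depth, and neighbours may belong to 1 stretch that was listed as several domains.

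The domain with the highest WT signal was also the longest, 259 kb from 62088200 to 62346999. It had 3005 normalized reads in K36M and 12830 in WT, a ratio of 0.234 (counting interval 0.227 to 0.242). The second, 238 kb from 66498400 to 66736399, had 3235 in K36M and 11581 in WT, a ratio of 0.279 (0.271 to 0.288). A 206 kb domain from 25353800 to 25559599 had 2021 in K36M and 9958 in WT. The 6 domains with the highest WT signal were 3.58-fold to 6.26-fold lower in K36M, although their WT levels per kb differed little, from 47.8 to 49.6.

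The 6 lowest ratios among domains with a mean of both libraries at or above the median lay between 0.149 and 0.159. Of these 6 domains, 5 lay between 40 and 70 Mb, as did 113 of all 291. The first, 47.0 kb from 49909800 to 49956799, had 293 normalized reads in K36M and 1963 in WT, a ratio of 0.149 (0.135 to 0.164). A 58.0 kb domain from 50079000 to 50136999 had 371 in K36M and 2470 in WT, a ratio of 0.150 (0.138 to 0.163). Their counting intervals overlap, so the order within this set is not resolved at this depth. The remaining domain, from 23482400 to 23538599, had a ratio of 0.159 (0.145 to 0.173), and the nearest H3K36me3 peak was 1753 kb away. The K36M levels of the 6 ran from 6.23 to 7.47 normalized reads per kb.

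The 6 highest ratios under the same rule lay between 0.369 and 0.441. All 6 of these domains overlapped an H3K36me3 peak, against 102 of all 291. A 58.2 kb domain from 85884800 to 85942999 had 1032 normalized reads in K36M and 2338 in WT, a ratio of 0.441 (0.415 to 0.469), and was wholly covered by H3K36me3. A 57.0 kb domain from 77439800 to 77496799 had 1084 in K36M and 2553 in WT, a ratio of 0.424 (0.40 to 0.45), and was wholly covered by H3K27me3. A 114 kb domain from 80861200 to 80974999 had 1815 in K36M and 4683 in WT, a ratio of 0.388 (0.371 to 0.405). The WT levels of these 6 domains, 39.3 to 48.9 per kb, were in the same range as the 39.4 to 48.3 per kb of the 6 lowest.

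The domains with the highest WT level per kb were short. The 6 densest among domains of at least 5 kb had 57.0 to 62.9 normalized reads per kb in WT. Of these, 5 were at least 4-fold lower in K36M, against 64.3% of all 291. The exception, 8.80 kb from 74644800 to 74653599, had 219 normalized reads in K36M and 505 in WT, a ratio of 0.434 (0.380 to 0.496), and it overlapped both H3K36me3 and H3K27me3. By length, the median log2 ratio was −2.41 in the 19 domains of 100 kb or more and −2.10 in the 61 domains under 10 kb. On the other chromosomes those medians were −2.09 for 41 domains and −2.05 for 558. Length on chromosome 15 also went with position, with a median of 43.6 kb from 40 to 70 Mb and 21.5 kb from 70 Mb on. The parts of length and position were not separated.

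Domains that overlapped H3K36me3 had more H3K36me2 signal in K36M than the others. On chromosome 15, 102 of 291 H3K36me2 domains (35.1%) shared 1 bp or more with an H3K36me3 peak, and 95 of the 279 H3K36me3 peaks (34.1%) were met in this way. On the other chromosomes the shares were 16.7% of 1400 and 4.89% of 4720. Longer domains meet other peaks more easily: the length shared with H3K36me3 was 12.6% of all H3K36me2 length on chromosome 15, and 8.16% elsewhere. H3K36me3 peaks themselves covered 15.0 Mb of chromosome 15, where the H3K36me2 domains span 99.9 Mb. The overlap that such coverage alone would give was not examined, here or elsewhere. On chromosome 15 the median log2 ratio was −1.92 in the overlapping domains and −2.24 in the 189 without H3K36me3. The overlapping domains had 11.99 normalized reads per kb in K36M and 44.8 in WT. Those without H3K36me3 had 9.72 in K36M and 44.5 in WT.

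The difference went with the kind of overlap. The median log2 ratio was −1.53 for the 24 domains that lay inside an H3K36me3 peak, and 1 of them was at least 4-fold lower. The 71 domains that met H3K36me3 at an end had −2.0, with 36 at least 4-fold lower, and shared a median of 8.80 kb. The 7 domains that enclosed H3K36me3 peaks had −2.12. Peaks inside H3K36me3 were shorter, with a median of 13.3 kb against 41.0 kb for those that met it at an end. The difference between overlapping and other domains was 0.28 both before 70 Mb and from 70 Mb on, so it was present in both parts.

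**Figure D3:**
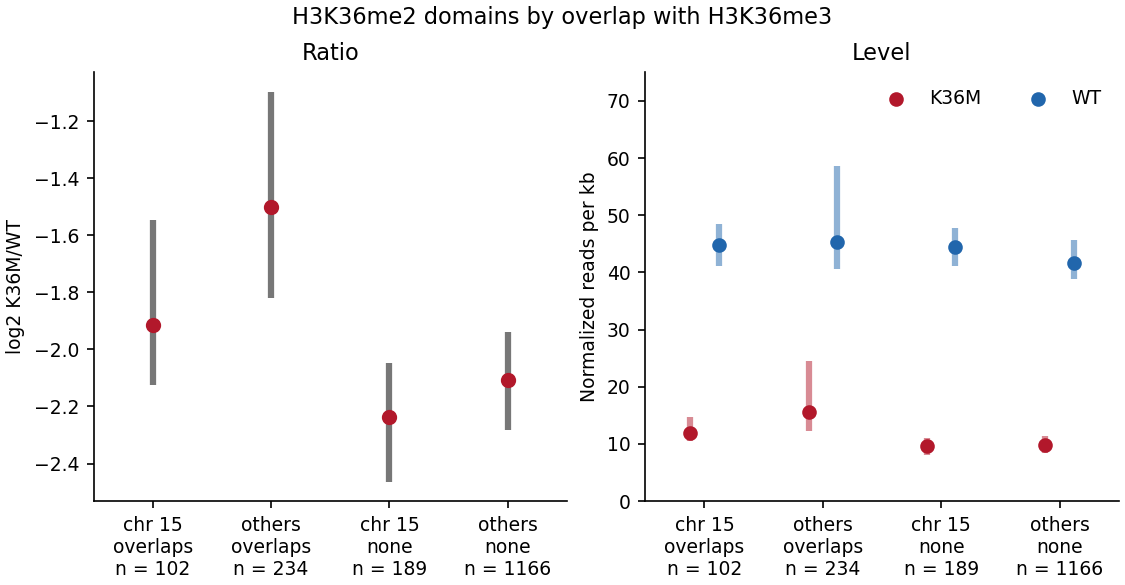
Median (point) and quartiles (bar) over H3K36me2 domains of the log2 K36M/WT ratio, left, and of normalized reads per kb in K36M and WT, right, for domains on chromosome 15 and on the other chromosomes, with and without an H3K36me3 overlap of at least 1 bp. Overlapping domains had the higher ratio in both places, and those of chromosome 15 (−1.92) lay below those elsewhere (−1.502).

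Set against domains of the same class, chromosome 15 was lower in both. Among overlapping domains its median of −1.92 compared with −1.502 for 234 domains elsewhere, with 11.99 and 15.5 normalized reads per kb in K36M. Among domains without H3K36me3 its median of −2.24 compared with −2.11 for 1166 elsewhere. Overlapping domains, which have higher ratios, were a larger share of the domains on chromosome 15, 35.1% against 16.7% elsewhere. The difference over all domains, −0.10, was smaller than within either class, −0.41 and −0.13. The overlapping domains also differed in length, with medians of 36.4 kb on chromosome 15 and 12.3 kb elsewhere. They differed as well in the length shared with H3K36me3, 1.475 of 4.968 Mb on chromosome 15 and 2.622 of 6.003 Mb elsewhere. As the ratio went with the kind of overlap on chromosome 15, the overlapping class is not alike in both places. The parts of length and of H3K36me3 coverage in the difference of −0.41 were not tested. The overlapping domains before 40 Mb, from 40 to 70 Mb and from 70 Mb on had medians of −1.97, −2.13 and −1.77. Those without H3K36me3 had −2.18, −2.45 and −2.05 in the same order.

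H3K27me3 seldom met these domains. Of the 291, 11 (3.78%) overlapped an H3K27me3 peak, and 11 of the 119 H3K27me3 peaks of the chromosome (9.24%) were met in this way. Elsewhere the shares were 2.07% of 1400 domains and 3.07% of 880 peaks. The median log2 ratio was −1.70 in the 11 and −2.16 in the other 280. On the other chromosomes it was −1.15 in the 29 domains that overlapped H3K27me3. Some of the 11 also overlapped H3K36me3, and the parts of that overlap and of position were not separated. In the 11 the median level was 12.5 normalized reads per kb in K36M and 44.8 in WT.

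H3K36me3 peaks on chromosome 15 were all at least 2-fold lower in K36M, against 98.5% of the whole table, and 79 of 279 (28.3%) were at least 4-fold lower, against 9.96%. The total was 88179 normalized reads in K36M and 328251 in WT over 15.0 Mb. The median log2 ratio was −1.88 against −1.70 on the other chromosomes, and it was the lowest of all 20 chromosomes. The median level was 5.59 per kb in K36M and 21.9 in WT on chromosome 15, and 5.75 and 18.6 elsewhere. The peak with the highest WT signal, 323 kb from 63897800 to 64221199, had a ratio of 0.344 (0.336 to 0.351), and among peaks with a mean of both libraries that reached the median the lowest ratio, 0.126, was in a 36.4 kb peak from 54073200 to 54109599. An 11.2 kb peak of lower signal, from 40926200 to 40937399, had a ratio of 0.107 (0.087 to 0.129). By bin, the lowest median was −2.29, from 40 to 50 Mb (13 peaks), and the highest −1.74, from 20 to 30 Mb (7 peaks).

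H3K27me3 differed far less between the genotypes, and mostly in the same direction on this chromosome. Its 119 peaks had 43217 normalized reads in K36M and 50633 in WT, and 96 of them (80.7%) were lower in K36M, against 62.5% of the whole table. At 1.5-fold 22 peaks (18.5%) were lower, against 8.11%, and at 2-fold 7 peaks (5.88%), against 1.7%. Of these 7, 6 were among the 18 peaks from 40 to 70 Mb and 1 among the 35 before 40 Mb. From 70 Mb on 0 of 66 peaks were at least 2-fold lower. The median level was 7.95 per kb in K36M and 9.54 in WT on chromosome 15, and 8.49 and 8.96 elsewhere. The lowest median log2 ratios by bin were −1.14, from 40 to 50 Mb, and −0.91, from 50 to 60 Mb, with 7 peaks each. The other bins with at least 5 peaks had medians from −0.39 to −0.11.

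In 10 Mb bins all 3 marks had their lowest median from 40 to 50 Mb. In 5 Mb bins, a setting added for the other marks after the data were seen, the lowest median was from 40 to 45 Mb for H3K36me3 (−2.29, 13 peaks) and H3K27me3 (−1.14, 7 peaks), but from 20 to 25 Mb for H3K36me2. All libraries come from the same pair of cell lines. Total signal from 40 to 50 Mb was 0.186 of WT for H3K36me2, 0.190 for H3K36me3 and 0.491 for H3K27me3. The median WT level per kb there was 42.7, 19.2 and 9.38 for these marks. The log2 ratio of a domain without H3K36me3 went with that of the nearest H3K36me3 peak with r = 0.37 and rho = 0.36 (189 domains), and the ratio of all 291 domains with that of the nearest H3K27me3 peak with r = 0.42 and rho = 0.48. These points share their place on the chromosome, several share the same nearest peak, and the amount of DNA was not examined. Among all 20 chromosomes, chromosome 15 had the highest median WT level per kb for H3K36me3 and for H3K27me3, and the second highest, after the 2 domains of chromosome X, for H3K36me2.

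**Figure D4:**
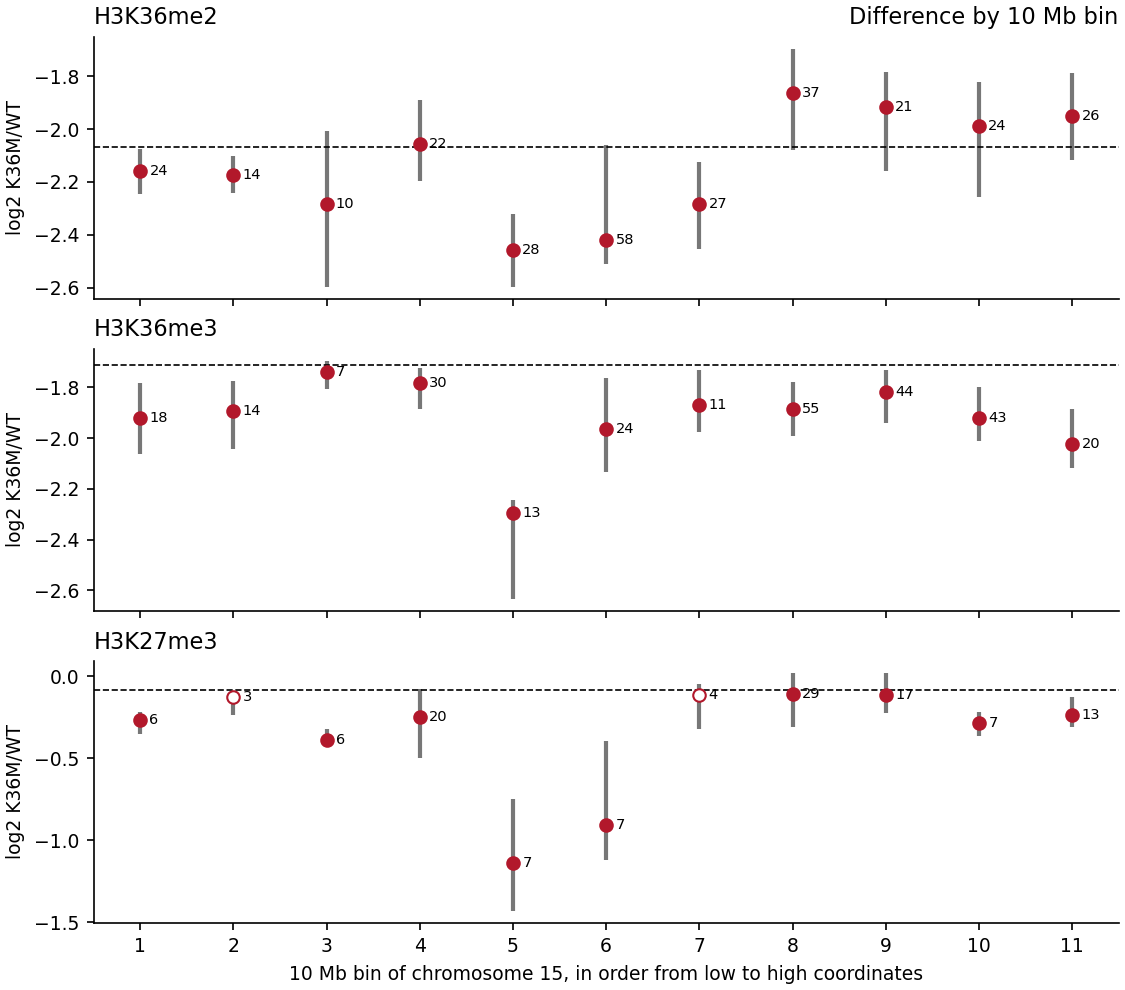
Median (point) and quartiles (bar) of the log2 K36M/WT ratio over the listed peaks of each mark in each 10 Mb bin of chromosome 15, with the number of peaks beside each point. Open points are bins with fewer than 5 peaks, and the dashed line is the median of the whole table of the mark. The bin from 40 to 50 Mb (the fifth) is the lowest for all 3 marks at this bin size, at −2.46, −2.29 and −1.14.

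Individual loci, chosen after their values were seen, show how the marks lie beside each other. In the first, around 41 Mb, 4 H3K27me3 peaks had ratios of 0.298 to 0.454 and 3 H3K36me3 peaks 0.107 to 0.202. The 112 kb H3K36me2 domain there, from 41508800 to 41620999, had 891 normalized reads in K36M and 5073 in WT, a ratio of 0.176 (0.166 to 0.186). An H3K36me3 peak with a ratio of 0.161 begins at 41620600, just inside its end.

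In the locus around 54 Mb, the 10 H3K36me2 domains of the second cluster had ratios of 0.152 to 0.199. The longest of them, 171 kb from 54105000 to 54275599, had 1261 normalized reads in K36M and 7852 in WT. The H3K36me3 peak with the ratio of 0.126 bridged the gap between 2 of the domains. Another H3K36me3 peak, from 54572000 to 54590999, bridged a further gap and had a ratio of 0.241 (0.213 to 0.272). Beside the cluster lay an H3K27me3 peak, from 53813600 to 53859799, with 146 in K36M and 356 in WT, a ratio of 0.410. In the locus around 61 Mb the first 6 H3K36me2 domains stood side by side with no listed peak of the other marks, and their ratios in order of position were 0.160, 0.155, 0.170, 0.177, 0.193 and 0.216. The ratio was thus lower at the left of the cluster than at its right, and the counting intervals of the end domains, 0.153 to 0.167 and 0.201 to 0.232, do not overlap.

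The locus around 77 Mb differed from these 3. Its 127 kb H3K27me3 peak, from 77387400 to 77514199, had 1712 normalized reads in K36M and 1753 in WT, a ratio of 0.977 (0.946 to 1.01). Inside it lay the H3K36me2 domain with the ratio of 0.424 and 3 H3K36me3 peaks of 0.370 to 0.430. The 3 other H3K36me2 domains of the locus had ratios of 0.212 to 0.309. The 6 H3K27me3 peaks there ranged from 0.911 to 1.19.

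**Figure D5:**
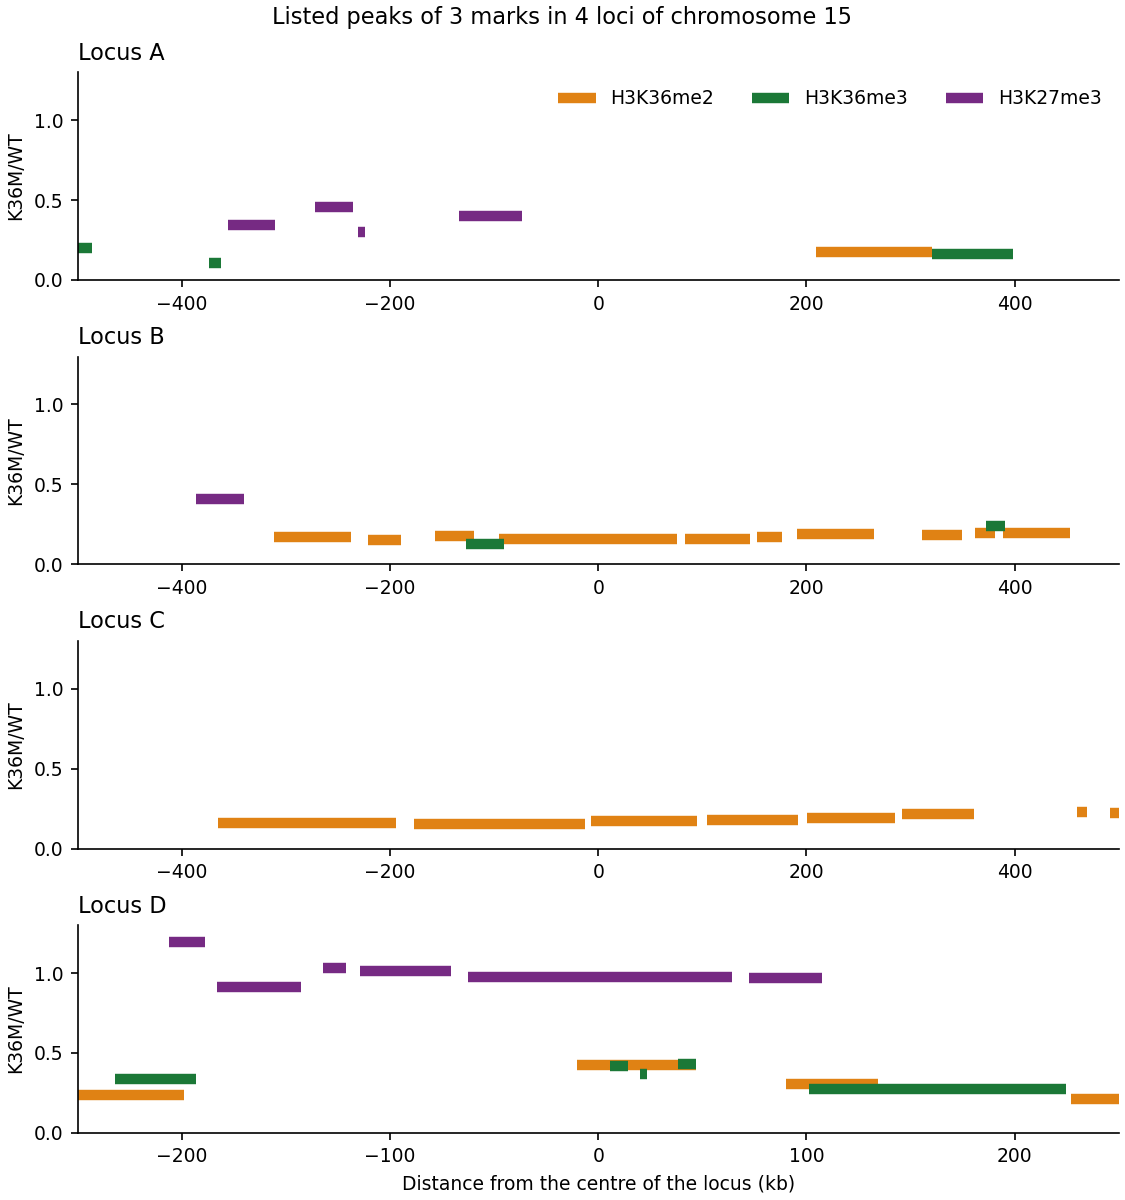
Listed peaks of H3K36me2, H3K36me3 and H3K27me3 in 4 loci of chromosome 15, drawn by their K36M/WT ratio (vertical axis) and distance from the centre of the locus in kb (horizontal axis), with 1 library per genotype and mark. Loci A, B, C and D are those around 41, 54, 61 and 77 Mb. H3K27me3 is at 0.298 to 0.454 in locus A and at 0.911 to 1.19 in locus D.

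Sizes on the spike-in scale rest on 1 factor per library. Without these factors, 233212 reads of the K36M library and 487971 of the WT library fell in the 291 domains, a ratio of 0.478. If both libraries were scaled to the same total over the whole table, the chromosome 15 ratio would be 0.924 and the median log2 ratio −0.15, as scaling of this kind sets the genome-wide difference to nil by design. The median domain held 571 reads in K36M and 1177 in WT.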

How the data were processed

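H3K36me2, H3K36me3 and H3K27me3 were measured by spike-in ChIP-seq of nucleosomes cut with micrococcal nuclease, in 6 libraries, with 1 per mark and genotype. Data of the 2 inputs were not used here. The tables as deposited hold a signal, the number of reads per peak scaled by the authors to the Drosophila spike-in, per the file headers. The submitters' processing notes list the builds dm6 and mm9, and Bowtie 1.0.0. How peaks were called, in which library, and how the scaling factor was computed is not given in the sources used here.

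Every value was a whole multiple of 1 step per column (0.52 in K36M and 1.08 in WT for H3K36me2), which was read as the value of 1 read. Ratios are K36M over WT with no pseudocount, since no value was 0. Intervals of ratios are exact Clopper-Pearson 95% intervals on those reads and cover counting error only. Domains were binned by their centre, and bins with fewer than 5 were not ranked. Regions named were the 6 highest in WT signal, length or WT level per kb (from 5 kb on), the 6 lowest and 6 highest ratios among domains whose mean of both libraries reached the median, the top domain of each bin and the 4 top clusters. For the other marks, 3 per rule were taken. The 4 loci lie outside this rule. The members, lists and rules were chosen with earlier results of these data known. Calculations were tested on simulated counts. Alternatives covered scaling, pseudocount, thresholds, overlap, length, bin size and gap. Software was Python 3.11.15, scipy 1.17.1, pandas 2.3.3, numpy 2.4.6 and matplotlib 3.10.9.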

Additional observations from a re-analysis of the deposited data

How the results depend on the processing

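With the same total in both libraries the chromosome 15 ratio was 0.924, the median log2 ratio −0.15 and the count at least 4-fold lower 0 (no test was run), by construction of that scaling. The ratio was 0.227 in domains whose mean signal reached the median, and rounded factors allow 0.227 to 0.233. Adding the 5th percentile of the values as a pseudocount gave a median of −1.92, and 129 domains at least 4-fold lower, against 187 without it. Without a pseudocount the counts were 286 at 2-fold and 88 at 5-fold. The difference from the other chromosomes was −0.41 among domains overlapping H3K36me3, 0.0062 without 39 to 63 Mb and 0.020 without 40 to 70 Mb. The share of the table on chromosome 15 was 17.2% by number, 26.6% by length, 25.5% by K36M signal and 25.3% without the 1% of domains highest in WT. Requiring 50% of a domain to be covered left 38 overlaps with H3K36me3 and 7 with H3K27me3, and gave a difference of 0.67 between domains with and without H3K36me3. Within 50 kb of H3K27me3 lay 33 domains. The lowest median of a 5 Mb bin was −2.65, from 20 to 25 Mb, and the highest, −1.84, was close in value to that of 10 Mb bins but lay from 0 to 5 Mb and not from 70 to 80 Mb. The causes of these changes were not tested. In value, 12 of 33 stayed within the interval of the median or ratio, or within 1.5 times a count. Another 19 moved and 2 reversed in sign. The 95% interval of a median was taken from the ranked values of the domains, which are not replicates. The analyses within H3K36me3 overlap, without 40 to 70 Mb and on either side of 70 Mb were added after the data were seen. No paired analysis was possible because each group has 1 library, and for the same reason none could be left out.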
